A study of Homo sapiens with 9 samples.

Results

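The cytoplasmic ribosomal protein genes encode the proteins of the large (RPL) and small (RPS) subunits of the ribosome outside mitochondria. They were taken as the protein-coding genes whose symbol is RPL or RPS followed by a number, with RPLP0, RPLP1, RPLP2 and RPSA, and without the RPS6K kinases, the RPS4Y genes and pseudogenes. Of 58219 genes in the count files, 84 met this rule, 52 of the large and 32 of the small subunit. Of these, 83 passed the filter on low counts, which left 14617 genes in all. The exception was RPL3L, a muscle form of RPL3 in human tissues, with 0 to 3 reads in a sample.

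RNA was sequenced from 9 samples of the hepatoma line PLC/PRF/5, a line of human liver cancer cells, carrying a stably expressed YES kinase. In 5 samples the kinase carried the T348I mutation (T348I) and in 4 it was wild type (WT). All 9 had received dasatinib, an inhibitor of SRC-family kinases, at 100 nM, and no untreated sample and no parental line was analysed here. T348I changes the gatekeeper residue of the kinase, a position at which mutations are known to reduce binding of such inhibitors, and the comparison of T348I with WT is the one the study's design names. Sample titles spell the drug as Dasa (2 T348I, 1 WT) or as dasatinib (3 T348I, 3 WT), and the samples are called the Dasa set and the dasatinib set below. The labels do not say what the spelling marks.

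Reads assigned to genes numbered 10381142 to 15799059 in T348I libraries and 10464731 to 14118614 in WT libraries. YES1, the gene of the expressed kinase, averaged 749 ± 233 CPM (reads scaled to a common library size) in T348I and 354 ± 13.2 CPM in WT (SD, n = 5 and 4). The amount of YES1 RNA thus differed together with the genotype. Reads of the introduced kinase and of any YES1 made by the line itself were not told apart. The share of RNA amount and of genotype in the differences below was not tested. Before scaling, YES1 had 14296 and 13626 reads in the T348I Dasa samples and 6290, 9052 and 6426 in the T348I dasatinib samples. WT samples had 4858 reads in the Dasa set and 5285, 3773 and 5034 in the dasatinib set. The excess in T348I was thus larger in the Dasa set, and its part in differences between the sets was not tested. The liver marker genes APOB and AFP were detected in every sample, while ALB had 17 to 55 reads and TTR 0 to 5 reads in a sample. CPM rest on library sizes scaled by the TMM method, so they are relative to the other genes of a library and not amounts per cell.

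Each ribosome holds a single copy of most of these proteins, and cells make them together with ribosomal RNA as they grow. Most of their mRNAs are known to begin with a C followed by a run of C and T, the 5′ terminal oligopyrimidine (TOP) tract, through which the kinase mTOR controls their translation. Several genes have a paralog, a second gene for a similar protein, that is used in particular tissues or conditions.

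Sequences around annotated transcription starts show which of the genes discussed below have such a tract at an annotated start. RefSeq starts on GRCh38.p14 were matched by symbol for 67 of the 84 genes. Each line holds 10 bases before and 20 bases from the first transcribed base, 5′ to 3′ on the gene's strand. Capitals mark a run of at least 5 C or T that starts with C at that first base. For a gene with several annotated starts, a start with such a run is shown where there is one. The first lines are 3 pairs of a paralog and its parent gene, followed by 3 genes with large differences between T348I and WT, the stalk protein gene RPLP0 and RPS6.
RPL22L1: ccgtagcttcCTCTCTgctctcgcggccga
RPL22: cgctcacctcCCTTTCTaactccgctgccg
RPS27L: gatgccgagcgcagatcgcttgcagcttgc
RPS27: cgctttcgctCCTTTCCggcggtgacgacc
RPL26L1: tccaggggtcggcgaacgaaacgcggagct
RPL26: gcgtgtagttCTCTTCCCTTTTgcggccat
RPL28: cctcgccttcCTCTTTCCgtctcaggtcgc
RPL38: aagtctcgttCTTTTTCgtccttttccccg
RPL27: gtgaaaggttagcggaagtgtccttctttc
RPLP0: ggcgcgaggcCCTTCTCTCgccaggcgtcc
RPS6: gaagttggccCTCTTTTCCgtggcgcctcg

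The start of RPL22L1 lies on the minus strand at chr3:170870176-170870205, that of RPS27L on the minus strand at chr15:63157458-63157487 and that of RPL28 on the plus strand at chr19:55385922-55385951. Such a run was present at an annotated start of 47 of the 67 matched genes (70.1%), against 1404 of 27305 genes in the whole table (5.14%). Among genes with a single annotated start the counts were 41 of 56 ribosomal protein genes (73.2%) and 880 of 22114 genes in the table (3.98%). RPS27L, RPL26L1 and RPL27 had none at the starts shown, and a start without the run says only that these letters are absent from the annotated first bases.

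In T348I cells, most ribosomal protein genes were slightly higher than in WT cells. By edgeR's quasi-likelihood test, adjusted over all genes tested with the set as a term, 72 of the 83 genes rose (86.7%), 1 fell and 10 did not pass the threshold of 0.05. Of all genes tested, 20.7% rose and 21.8% fell. The median log2 fold change was 0.22 (1.17-fold) for the ribosomal protein genes and -0.01 for all genes. The differences were small and of similar size, since the middle 50% of the 83 genes lay between 0.15 and 0.27 on the log2 scale. The 72 genes that rose did so by 1.07-fold to 1.32-fold, and 0 reached 1.5-fold. Among the 9384 genes at least as abundant as the lowest 5% of the ribosomal protein genes, 26.1% rose. That floor is low, since 71 of the 83 genes averaged above 100 CPM, so the 9384 genes are not matched to them in abundance. Without the set term, 31 of the 83 genes passed as higher and 0 as lower, with the median again at 0.22. The share of all genes that passed without the set term was not counted, so the 31 genes cannot be set against it.

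Genes of both subunits rose. Of the large-subunit genes, 45 of 51 rose, 0 fell and the median log2 fold change was 0.23. Of the small-subunit genes, 27 of 32 rose, 1 fell and the median was 0.21. Among the genes that did not pass were RPL3, RPL7A, RPLP0 and RPSA, with log2 fold changes of 0.08, 0.07, -0.04 and 0.08. Genes with the C and T run at an annotated start rose in 42 of 47 cases, with a median of 0.22. Those without it at any annotated start rose in 16 of 20 cases, with a median of 0.23.

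The summed share of gene reads in these genes was 3.18% and 3.13% in the T348I Dasa samples and 3.23%, 3.38% and 3.33% in the T348I dasatinib samples. It was 2.74% in the WT Dasa sample and 2.89%, 3.17% and 3.11% in the WT dasatinib samples. Within each set every T348I sample was above every WT sample, whereas over both sets the ranges overlapped. The mean share was 3.25% ± 0.108 in T348I and 2.98% ± 0.198 in WT (SD, n = 5 and 4). Transcripts of the mitochondrial genome took 15.2% to 17.0% of gene reads in the Dasa set and 7.38% to 9.44% in the dasatinib set. With those transcripts left out of the total, the share was 3.68% ± 0.0931 in T348I and 3.31% ± 0.125 in WT.

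**Figure D1:**
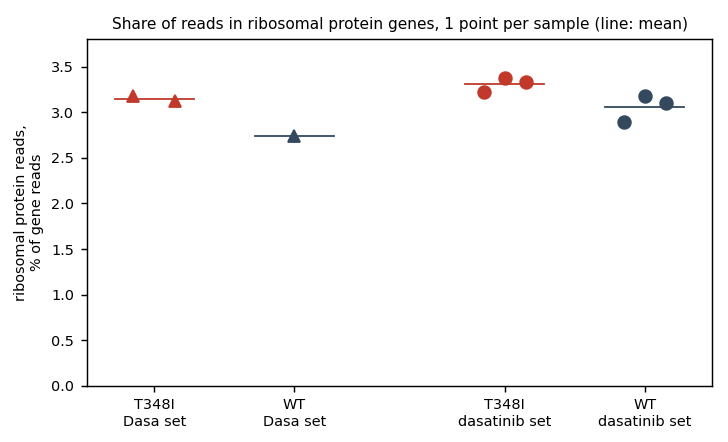
Share of gene reads in the 84 ribosomal protein genes in percent (vertical axis from 0), 1 point per sample, for T348I and WT in the Dasa set and in the dasatinib set, with a line at the mean of each. T348I samples lie between 3.13% and 3.38% and WT samples between 2.74% and 3.17%.

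Taken gene by gene over all 9 samples, every T348I sample lay above every WT sample for 43 of the 83 genes (51.8%), against 10.2% of all genes tested, and below for 0, against 9.41%. In the dasatinib set alone the count was 65 genes (78.3%), against 21.8% of all genes tested, and 0 genes lay below, against 22.9%.

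The stalk of the large subunit, which binds translation factors, is built of RPLP0 as the base and RPLP1 and RPLP2 as the arms. RPLP1 had 835 and 823 CPM in the T348I Dasa samples and 889, 948 and 941 CPM in the T348I dasatinib samples, against 758 CPM in the WT Dasa sample and 771, 893 and 818 CPM in the WT dasatinib samples. T348I was mostly higher within a set, with overlap in the dasatinib set, and the log2 fold change was 0.15 ± 0.044 (SE; edgeR adjusted p = 0.00848). RPLP2 rose by a similar log2 fold change of 0.14 (edgeR adjusted p = 0.00907). RPLP0 averaged 1286 CPM in T348I and 1357 CPM in WT, and its log2 fold change of -0.04 ± 0.039 (SE) did not pass (edgeR adjusted p = 0.437). Per kilobase of the shortest coding transcript, RPLP1, RPLP0 and RPS12 had the highest levels of all 83 genes. That length was only 0.256 kb for RPLP1, so its rank depends on the choice of transcript. The level was 3331 CPM per kilobase for RPLP1, against a median of 577 over the genes and 0.972 for RPL10L, the lowest.

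RPL5 and RPL11 bind the 5S ribosomal RNA, and when free they are known to inhibit MDM2, the ubiquitin ligase of p53. RPL11 had 416 and 417 CPM in the T348I Dasa samples and 432, 427 and 426 CPM in the T348I dasatinib samples, against 333 CPM in the WT Dasa sample and 362, 395 and 369 CPM in the WT dasatinib samples. The groups did not overlap, and RPL11 rose with a log2 fold change of 0.23 ± 0.039 (SE; edgeR adjusted p = 7.24e-05). RPL5 rose by 0.17 on the log2 scale (edgeR adjusted p = 0.00199), with T348I at 744 to 841 CPM and WT at 656 to 774 CPM.

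Among other large-subunit genes, RPL28, RPL27 and RPL38 had the largest differences after the paralog RPL22L1. RPL28 had 351 and 360 CPM in the T348I Dasa samples and 333, 361 and 374 CPM in the T348I dasatinib samples, against 255 CPM in the WT Dasa sample and 278, 308 and 303 CPM in the WT dasatinib samples. Every T348I sample was above every WT sample, and the log2 fold change was 0.33 ± 0.047 (SE; edgeR adjusted p = 1.43e-05). RPL38, which mouse work has linked to the translation of Hox mRNAs, had 360 and 353 CPM in the T348I Dasa samples and 300, 308 and 303 CPM in the T348I dasatinib samples, against 286 CPM in the WT Dasa sample and 217, 248 and 259 CPM in the WT dasatinib samples. These groups did not overlap either, although the WT Dasa sample came close to the lowest T348I value, and the log2 fold change was 0.33 ± 0.044 (SE; edgeR adjusted p = 6.34e-06). RPL27 rose by the same amount, 0.33 on the log2 scale (edgeR adjusted p = 7.08e-06), with T348I at 474 to 543 CPM and WT at 361 to 413 CPM.

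RPL39, a small protein of the peptide exit tunnel, was far less abundant in these files, with 28.9 and 28.3 CPM in the T348I Dasa samples and 16.9, 14.7 and 15.7 CPM in the T348I dasatinib samples, against 23.1 CPM in the WT Dasa sample and 12.6, 14.7 and 10.7 CPM in the WT dasatinib samples. T348I was higher in the Dasa set, and in the dasatinib set its lowest sample matched the highest WT sample. RPL39 rose with a log2 fold change of 0.32 ± 0.08 (SE; edgeR adjusted p = 0.00336). Reads assigned to its annotated pseudogenes came to 15.8% of its own reads, and reads that fit several places count for no gene, so its level is uncertain.

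In the small subunit, RPS27A, which is made as a fusion of ubiquitin and the ribosomal protein, had the largest difference. It had 977 and 936 CPM in the T348I Dasa samples and 853, 864 and 814 CPM in the T348I dasatinib samples, against 782 CPM in the WT Dasa sample and 645, 716 and 695 CPM in the WT dasatinib samples. The groups did not overlap, and the log2 fold change was 0.30 ± 0.041 (SE; edgeR adjusted p = 8.55e-06). RPS6, a substrate of the S6 kinases, had 444 and 428 CPM in the T348I Dasa samples and 360, 363 and 357 CPM in the T348I dasatinib samples, against 370 CPM in the WT Dasa sample and 321, 349 and 339 CPM in the WT dasatinib samples. T348I was higher within each set but not across them, and RPS6 rose by 0.14 ± 0.039 on the log2 scale (SE; edgeR adjusted p = 0.00581). RPS12 rose by 0.24 on the same scale (edgeR adjusted p = 0.00039).

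The paralogs did not all move in the same direction. Of the 6 tested, 3 rose, 1 fell and 2 did not pass, while of the 77 other genes 69 rose and 0 fell. RPL22L1 had the largest rise of all ribosomal protein genes. It had 119 and 114 CPM in the T348I Dasa samples and 99.6, 102 and 93.6 CPM in the T348I dasatinib samples, against 92.5 CPM in the WT Dasa sample and 70.8, 74.2 and 74.7 CPM in the WT dasatinib samples. All T348I samples were above all WT samples, the lowest only just, and the log2 fold change was 0.40 ± 0.041 (SE; edgeR adjusted p = 2.18e-07). Its parent RPL22, whose protein represses RPL22L1 in mouse cells, rose by 0.11 ± 0.037 on the log2 scale (SE; edgeR adjusted p = 0.025). RPL22 did not pass in the dasatinib set alone, without the set term (0.06), without the filter on low counts, or when WT dasatinib replicate 3, WT Dasa replicate 1 or T348I dasatinib replicate 2 was left out.

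RPS27L, a p53 target gene in human cells, was the only ribosomal protein gene called lower. It had 39.2 and 36.4 CPM in the T348I Dasa samples and 43.5, 47.1 and 43.9 CPM in the T348I dasatinib samples, against 51.2 CPM in the WT Dasa sample and 43.2, 47.8 and 51.8 CPM in the WT dasatinib samples. T348I was lower in the Dasa set, while the groups overlapped in the dasatinib set. The log2 fold change was -0.19 ± 0.066 (SE; edgeR adjusted p = 0.0251). The call rests on the Dasa set: the log2 fold change was -0.07 in a fit of the dasatinib set alone and -0.07 without the WT Dasa sample, and neither passed. It also did not pass when WT dasatinib replicate 3 or either T348I Dasa sample was left out, at -0.17, -0.18 and -0.15, or without the set term, at -0.21.

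The balance of paralog to parent was compared as the log2 ratio of their CPM, over 6 pairs and with an exact two-sided permutation test over the samples that takes no account of the set. The RPS27L to RPS27 ratio averaged -3.05 ± 0.063 in T348I and -2.68 ± 0.113 in WT (SD, n = 5 and 4). The groups did not overlap, and the difference of -0.36 had an exact permutation p of 0.0079, the smallest that 126 splits allow (0.0476 adjusted over the 6 pairs). In the dasatinib set alone the difference was -0.27, with an exact permutation p of 0.1, the smallest that 20 splits allow. RPS27 itself rose by 0.17 on the log2 scale (edgeR adjusted p = 0.00119). In a model with the interaction of set and genotype, the dasatinib set had 0.19 for RPS27 and -0.08 for RPS27L. The lower ratio thus holds the rise of RPS27 and does not measure a fall of RPS27L alone. The RPL22L1 to RPL22 ratio averaged -1.43 ± 0.268 in T348I and -1.80 ± 0.335 in WT (SD, n = 5 and 4). Its difference of 0.37 had an exact permutation p of 0.103 (0.31 adjusted). This ratio was -1.10 and -1.18 in the T348I Dasa samples and -1.54 to -1.68 in the T348I dasatinib samples, against -1.30 in the WT Dasa sample and -1.92 to -2.01 in the WT dasatinib samples, so that T348I was higher within each set. In the dasatinib set alone its difference was 0.35, again with an exact permutation p of 0.1, the smallest possible. With the set as a term and labels permuted within sets, an alternative chosen after seeing the data, the differences were -0.36 for RPS27L to RPS27 and 0.29 for RPL22L1 to RPL22. Both then had an exact permutation p of 0.0167, the smallest that 60 splits allow, and an adjusted p of 0.05, at the threshold and not under it. The other 4 pairs had adjusted exact permutation p-values of 0.581 to 0.698 without the set and 0.4 to 0.717 with it.

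RPL7L1, a protein similar to RPL7, had 262 and 255 CPM in the T348I Dasa samples and 250, 249 and 257 CPM in the T348I dasatinib samples, against 195 CPM in the WT Dasa sample and 233, 237 and 215 CPM in the WT dasatinib samples. No values overlapped, and the log2 fold change was 0.22 ± 0.046 (SE; edgeR adjusted p = 0.000644). RPL26L1 rose by 0.14 on the log2 scale (edgeR adjusted p = 0.0305), with T348I at 32.9 to 37.9 CPM and WT at 30.7 to 34.4 CPM, and its call was lost in DESeq2, without the filter on low counts, without the set term and when any 1 of 4 dasatinib samples was left out (WT replicate 1 or 2, T348I replicate 2 or 3). RPL39L and RPL10L, both known from testis, were near the lower limit. RPL39L had 1.97 to 5.08 CPM in T348I and 1.44 to 5.12 CPM in WT, and RPL10L 0.289 to 0.984 CPM in T348I and 0.542 to 1.16 CPM in WT. Neither passed.

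**Figure D2:**
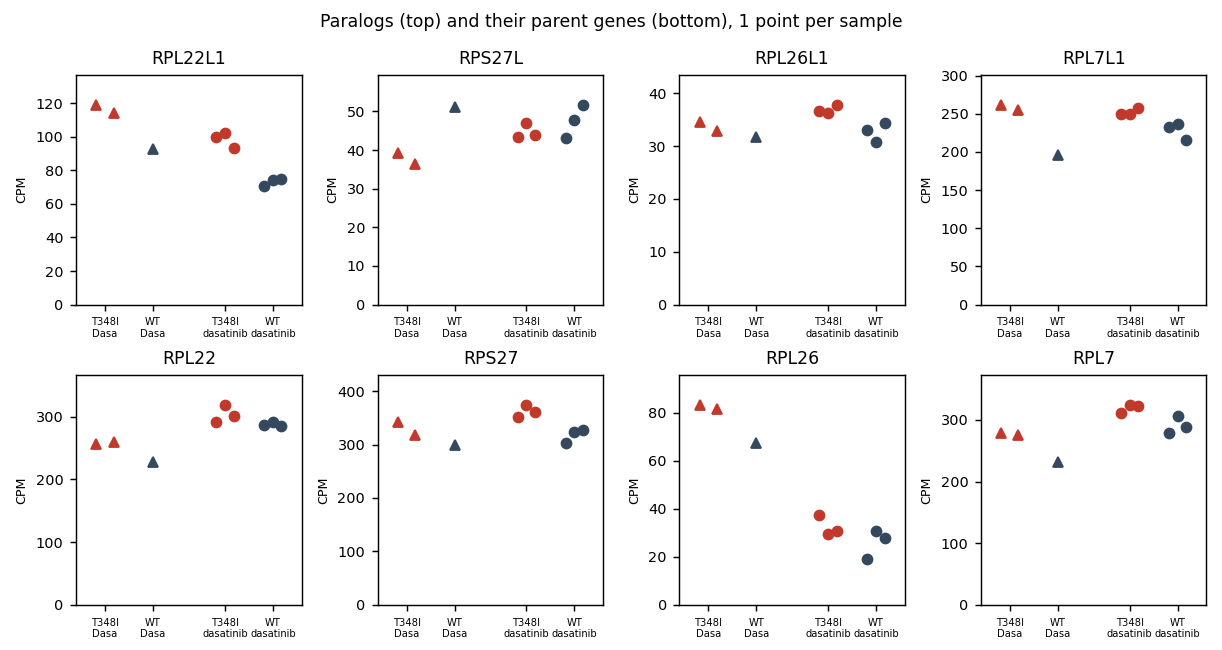
CPM of 4 paralogs (top row) and their parent genes (bottom row), 1 point per sample, with T348I in red and WT in dark blue, triangles for the Dasa set and circles for the dasatinib set; each vertical axis starts at 0. RPL22L1 is higher in T348I in both sets, whereas RPS27L is lower in T348I at 36.4 and 39.2 CPM against 51.2 CPM in the Dasa set and overlaps in the dasatinib set.

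In a model with the interaction of set and genotype, the rise was present in both sets. Every fold change in the Dasa set was taken against the same single WT sample, so the counts there all depend on that sample. In the Dasa set 67 of 83 genes rose, 1 fell and the median log2 fold change was 0.25, against 18.8% of all genes higher and 19.1% lower. In the dasatinib set 70 rose, 0 fell and the median was 0.19, against 17.6% of all genes higher and 17.3% lower. Both sets had a positive value for 77 genes. The difference between T348I and WT itself depended on the set for 4 genes (4.82%, against 7.33% of all genes tested, 3.14% with a positive term and 4.19% with a negative one). It was larger in the Dasa set for RPL7L1, RPL4 and RPL18, with interaction terms of 0.26, 0.22 and 0.23 (edgeR adjusted p = 0.0125, 0.026 and 0.0369), and more negative there for RPS27L, with a term of -0.35 (edgeR adjusted p = 0.0372). These terms rest on a single WT Dasa sample, which was taken to vary like the others. DESeq2 called 2 positive terms and 0 negative ones, so the call of RPS27L was lost there. Upper quartile scaling in edgeR gave 2 positive and 1 negative. Shares of all genes were not counted for these alternatives.

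RPL4, named for its small interaction p, was abundant. It had 1199 and 1186 CPM in the T348I Dasa samples and 1145, 1177 and 1201 CPM in the T348I dasatinib samples. WT had 875 CPM in the Dasa sample and 980, 1020 and 1007 CPM in the dasatinib samples. The T348I samples were close together in both sets and the WT Dasa sample, on which the interaction term rests, was the lowest.

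The sets also differed from each other, at the same genotype, and the T348I samples differed between the sets in YES1 reads, as given above. Between the Dasa and dasatinib samples, 29 of 83 genes were higher in Dasa (34.9%, against 29.7% of all genes) and 21 lower (25.3%, against 29% of all genes). The shares are close to those of all genes, and the median log2 fold change was 0.04, but the range ran from -1.23 for RPL39L to 1.98 for RPS10. RPL36A had 11.8 and 14.3 CPM in the T348I Dasa samples and 11.9 CPM in the WT Dasa sample, against 3.37, 2.83 and 3.36 CPM in the T348I dasatinib samples and 3.70, 2.56 and 3.32 CPM in the WT dasatinib samples. All Dasa samples were far above all dasatinib samples, while T348I and WT overlapped within each set, and the log2 fold change of Dasa over dasatinib was 1.97 ± 0.12 (SE; edgeR adjusted p = 1.47e-10). RPL26 was higher by 1.37 on the log2 scale (edgeR adjusted p = 2.11e-10) and RPL37 by 0.45 (edgeR adjusted p = 1.09e-08).

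Several genes with large set differences share bases with another gene on the same strand, where a read cannot be given to 1 gene. In GENCODE 29, 8 of the 83 genes do so, among them RPL17 (97.3% of the bases of its shortest coding transcript, with the readthrough gene RPL17-C18orf32), RPS10 (84.0%, with RPS10-NUDT3), RPL36A (74.4%, with RPL36A-HNRNPH2) and RPL26 (65.3%). Of these 8 genes, 6 were higher and 1 lower in Dasa, with a median log2 fold change of 0.66, against 23 higher and 20 lower of the other 75, with a median of 0.02. RPL17 and RPS10 were picked here after their values were seen, and both had low counts, with 6.50 to 15.9 CPM for RPL17 and 1.03 to 5.91 CPM for RPS10 over the 9 samples. Reads assigned to annotated pseudogenes came to 56.8% of the gene's own reads for RPL36A, 103% for RPS10 and 140% for RPL17. Reads that fit several places made up 7.14% to 7.99% of all reads in the Dasa set and 10.9% to 16.9% in the dasatinib set. The part of shared bases, pseudogenes and such reads in the set differences was not tested. RPL22, a parent gene in the ratios above, is also among the 8 genes, with 29.3% of its bases shared. The part of this in the RPL22L1 to RPL22 ratio was not tested. For T348I over WT, 66 of the 75 genes without shared bases rose, and 6 of the 8 with them.

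**Figure D3:**
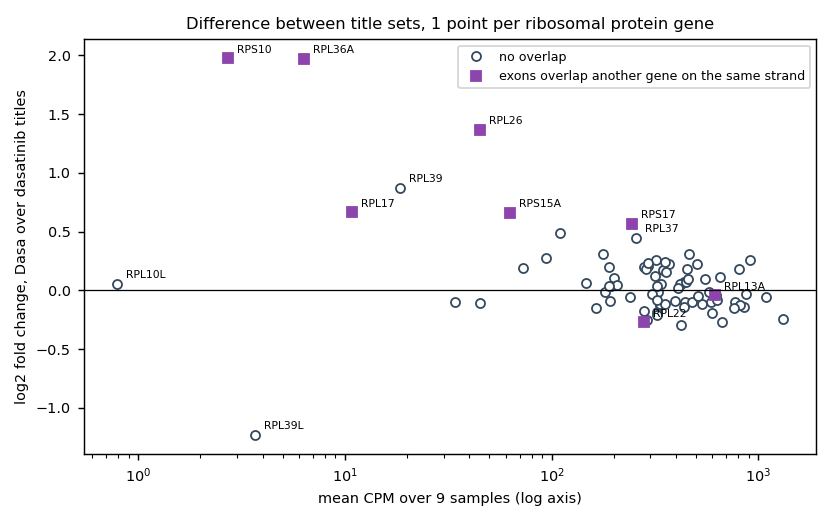
Log2 fold change of Dasa over dasatinib titles (vertical axis) against mean CPM over the 9 samples (log axis), 1 point per tested ribosomal protein gene; purple squares are genes whose exons overlap another gene on the same strand. Most genes above 100 CPM lie close to 0, while RPS10, RPL36A and RPL26 are above 1.

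Other genes of ribosome production and translation were set beside the ribosomal protein genes for T348I over WT, where 20.7% of all genes tested rose and 21.8% fell. Of 4 ribosomal protein genes outside the symbol rule, 3 rose and 0 fell, and their median log2 fold change was 0.14, with RACK1 at 0.18 and FAU at 0.19. Of 19 tested genes for other TOP mRNAs, 13 rose, 0 fell and the median was 0.11, led by EEF1B2, an elongation factor subunit, at 0.23. Of 26 ribosome assembly factors, 21 rose, 1 fell and the median was 0.22. Among them BRIX1, needed for the large subunit, was at 0.41 (63.5 ± 2.39 CPM in T348I and 48.0 ± 2.33 CPM in WT, SD, n = 5 and 4; edgeR adjusted p = 5e-07), and HEATR3, an importer of RPL5, was at -0.33 (edgeR adjusted p = 1.12e-05).

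Of 8 subunits of RNA polymerase I, the enzyme that makes ribosomal RNA, 6 rose, 0 fell and the median log2 fold change was 0.20. Of 77 tested mitochondrial ribosomal protein genes, 22 rose, 0 fell and the median was 0.07, a share higher that is close to the 26.1% of the genes above the abundance floor given earlier. Of 8 genes for regulators of TOP mRNA translation, EIF4EBP1, EIF4E and RPTOR rose and RPS6KA1 fell, with a median of 0.01, and MTOR and LARP1 did not pass, at -0.04 and 0.05. The start tract was annotated for 12 of 13 matched other TOP genes, 6 of 69 mitochondrial ribosomal protein genes (8.70%) and 3 of 22 assembly factors.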

How the data were processed

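Raw counts of reads per gene were deposited by the authors, 1 file per sample, made from stranded polyA libraries with STAR 2.5.1b on GRCh38 together with CASAVA 1.8.2 and Trimmomatic 0.35, per the submitters' processing notes. The release of the annotation is not given in the sources used here. The sense-strand counts were used. Rows naming no gene held 22.2% to 29.8% of reads and were left out. A read that fits more than 1 place is not counted, which lowers the levels of genes that have close copies.

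After filterByExpr and TMM scaling, counts were tested with edgeR 4.0.16 (limma 3.58.1, R 4.3.3) and its quasi-likelihood F-test, modelling set and genotype over all 9 samples, with Benjamini-Hochberg adjustment over all genes tested and a threshold of 0.05. A second model added their interaction. Each standard error is the fold change divided by the root of F. The script was tested on simulated data. The alternatives were DESeq2 1.42.0, other scalings, no filter, unstranded counts, pseudogene reads added to the parent, no set term, 1 set alone, a replicate block and each sample left out. Paralog ratios used a pseudocount of 0.5 CPM. Lengths are of the shortest protein-coding basic transcript in GENCODE 29.

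Genes in the text were named by rule: the largest called folds in each direction, up to 5, paralogs and parents, the stalk, 5S, RPS6 and RPS27A genes, the 3 highest per kilobase and the 3 smallest p of the set and interaction terms. For other lists, up to 3 genes with the smallest p were eligible. RPL17, RPS10, HEATR3, RPS6KA1, MTOR, LARP1 and the genes given as not passing were named after their values were seen. The ribosomal protein genes and all lists were chosen with earlier results of these data known. The labels do not say that samples came from separate cultures, so the spread that the p-values measure may be technical. Replicate counts differed by more than sampling noise in every pair checked, with a chi-square per gene of 1.49 to 3.09. Values of some genes are not reported here.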

Additional observations from a re-analysis of the deposited data

Results flagged for a closer look

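The log2 difference between T348I and WT differed between the sets, by the edgeR interaction test, for RPS27L (-0.3535), RPL7L1 (0.2582), RPL18 (0.2335) and RPL4 (0.218). Each value is the Dasa set's difference minus that of the dasatinib set and rests on 1 WT Dasa sample. These genes were 4.82% of the ribosomal protein genes tested, against 7.33% of all genes tested. In DESeq2 2 positive terms and 0 negative ones passed, and the share of all genes was not counted there.

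That WT Dasa sample stood apart from the 3 WT dasatinib samples for RPL22, where it was the lowest at 228.6 CPM, and for RPL36A, where it was the highest at 11.9 CPM. These were 2 of 58 such checks, of which chance alone flags about 1 in 20. The T348I Dasa samples lay on the same side of the T348I dasatinib samples for both genes.

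Reads on the strand opposite to the ribosomal protein genes, which entered no comparison, reached 1.895% of their sense reads, in T348I Dasa replicate 1.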

How the results depend on the processing

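Scaling did not alter the result: with upper quartile scaling, or scaling without ribosomal protein and mitochondrial genes, 72 genes were higher and 1 lower. The count of higher genes was 69 in DESeq2, 69 without a filter, 71 with unstranded counts and 66 to 73 with 1 sample left out, with median log2 fold changes of 0.19 to 0.24 in the last. Without the set term 31 were higher and 0 lower. Shares of all genes that passed were not counted for the alternatives in this section. The replicate block gave 69 higher and 0 lower, with a median of 0.22, and ended the calls of RPS27L (-0.16) and RPL22 (0.10). Same-numbered samples of the dasatinib set correlated at 0.113, 0.00445 and 0.0561, and differently numbered ones at -0.0878 to 0.0422. Deviations from means of so few samples cannot show whether the numbers pair the samples. The count of lower genes was 0 in the dasatinib set alone, and 0 to 1 with 1 sample left out. Dasa over dasatinib gave 26 to 37 higher and 15 to 25 lower genes with 1 sample left out. DESeq2 called 2 interactions higher and 0 lower, and upper quartile scaling 2 and 1. Leaving out mitochondrial transcripts moved the mean share of reads to 3.68% in T348I and 3.31% in WT. The value of RPL36A, never called, changed sign to -0.0057 with the replicate block, -0.0376 in the dasatinib set alone, -0.0398 without WT Dasa replicate 1 and -0.0238 without T348I Dasa replicate 2. The cause was not tested. Over the alternatives for named genes, 462 values kept direction and call, 37 lost the call, 1 gained it and 4 changed sign. For RPL10 the call was lost without WT dasatinib replicate 1 or T348I dasatinib replicate 2. RPL3 passed as higher without T348I dasatinib replicate 1, at 0.11. The count without genes sharing bases was chosen after seeing the data. Counts under about 5 CPM, as for RPL10L, RPL39L and RPS10, limit what could be detected.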
